A study of Mus musculus with 4 samples.

Results

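The 9 genes described here, Hba-a1, Hba-a2, Hbb-bs, Hbb-bt, Alas2, Car1, Car2, Klf1 and Slc4a1, are a set used to look for red cell RNA in other blood samples. They were picked by gene symbol out of the 24411 symbols in the tables, and all 9 were found. The study set Arid5b-overexpressing mice against wildtype mice, in bone marrow B cells sorted on B220, a surface protein of the B lineage, and sequenced their RNA. There were 2 libraries labelled Arid5b overexpression and 2 labelled wildtype. Strain, age, the number of animals behind a library and the promoter and cell type in which Arid5b was overexpressed are not given in the sources used here. The labels do not say which libraries came from different animals, so p-values measure the spread between libraries.

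Red cell precursors in the marrow make haemoglobin from alpha and beta globin chains and heme, an iron-holding ring built in a chain of enzyme steps that starts in the mitochondrion. Erythroid cells use their own first enzyme of that chain, ALAS2, and fill the cell with globin mRNA, carbonic anhydrases that convert carbon dioxide to bicarbonate, and the membrane anion exchanger band 3. Because globin mRNA is so abundant in these cells, a few of them in a sorted sample are usually visible as globin reads. In bulk RNA fewer cells of a type and less RNA per cell cannot be told apart.

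The overexpression-labelled libraries held 15281839 and 20356404 reads in genes and the wildtype libraries 20146878 and 14196665, of which 25.69% to 30.52% lay on the ribosomal RNA precursor Rn45s. Arid5b had 3803.7 CPM (its reads relative to all reads of a library) in overexpression-labelled library 1 but 136.1 CPM in overexpression-labelled library 2, against 148.6 and 173.6 CPM in wildtype libraries 1 and 2. Library 2 of the overexpression label thus went against its label, and each such library is also set alone against the wildtype pair below. B cell markers, 10 genes with Cd79a and Pax5 among them, summed to 3645 and 6229 CPM in overexpression-labelled libraries 1 and 2, against 5586 and 6328 CPM in wildtype libraries 1 and 2, and none was at 0. Within this sum, single markers went both ways in overexpression-labelled library 1. In the same order of libraries, Ptprc had 372 and 1880 against 1772 and 1958 CPM. Ms4a1 had 9.75 and 590 against 410 and 571 CPM. Higher in that library were Vpreb3, with 297 and 13.2 against 18.1 and 23.9 CPM, and Pax5, with 320 and 144 against 145 and 151 CPM. Wildtype library 1 also stood apart in the female-specific Xist, with 24 reads against 68540 to 132008 in the other 3 libraries, and in the Y-linked Ddx3y, with 3260 reads against 0 or 1. The wildtype pair thus differed in sex-linked RNA and was not the same RNA sequenced again.

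The 4 adult globin genes were listed at 0 in all 4 libraries. Hba-a1 and Hba-a2 encode the alpha chain and lie on chromosome 11 (GRCm38, chr11:32283511-32284465 and chr11:32296489-32297298, plus strand). Hbb-bs and Hbb-bt encode the beta chain and lie on chromosome 7 (chr7:103826534-103828096 and chr7:103812524-103813996, minus strand). In each pair the copies are nearly the same, which matters for how reads are assigned. Over 426 coding bases, stop codon left out, Hba-a1 and Hba-a2 differed at 1 base, C381T, and over 441 coding bases Hbb-bs and Hbb-bt differed at 1 base, C417T (the base of the first-named gene stands first, and positions count from 1 at the A of the start codon). The stretch around each difference is shown from the GENCODE annotation, with the differing base in capitals.
Hba-a1, coding bases 351 to 426: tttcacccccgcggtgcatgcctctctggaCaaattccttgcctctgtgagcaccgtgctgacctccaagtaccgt
Hba-a2, coding bases 351 to 426: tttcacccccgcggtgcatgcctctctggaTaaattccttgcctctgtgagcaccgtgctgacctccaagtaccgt
Hbb-bs, coding bases 387 to 441: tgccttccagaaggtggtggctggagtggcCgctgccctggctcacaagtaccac
Hbb-bt, coding bases 387 to 441: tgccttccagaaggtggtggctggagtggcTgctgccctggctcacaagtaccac

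Counted over whole annotated transcripts, 27.7% of the 50-base words of Hba-a1, 10.7% of those of Hba-a2, 46.8% of those of Hbb-bs and 41.7% of those of Hbb-bt occurred in no other gene. These shares hold for the GENCODE annotation. The deposited values also list the beta globin symbols Hbb-b1 and Hbb-b2, for which GENCODE gave no exons. The shares may thus differ in the annotation used for counting, and the part of dropped reads in the globin values was not tested. Hbb-b1 and Hbb-b2 were listed at 0 as well. So was Rpl26, a ribosomal protein gene that every cell uses and the 1 such symbol of 76 at 0 in all 4 libraries. Rpl26 was picked out after its values were seen. For this reason no upper limit is set on the globin level. Of the 11 other globin symbols on the list (embryonic globins, theta globins, myoglobin, neuroglobin and cytoglobin among them), 9 were listed at 0 in all 4 libraries. Cygb had 0 and 9 reads in overexpression-labelled libraries 1 and 2, against 4 and 1 in wildtype libraries 1 and 2, and Ngb had 0 and 1 reads against 3 and 2.

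The promoters of Hba-a1, Hbb-bs and Alas2 are shown because they put 2 globin genes listed at 0 beside the heme enzyme gene that had reads in every library. Each is the 250 bases before the RefSeq start (GRCm38.p6), read along the gene's own strand. Capitals mark AGATAA or TGATAA, words bound by GATA factors, CACCC, the core of the word bound by KLF1, CCAAT and TATAAA. All were searched on both strands, and no 2 of these matches overlap in the 3 windows.
Hba-a1, chr11:32283422-32283671, plus strand: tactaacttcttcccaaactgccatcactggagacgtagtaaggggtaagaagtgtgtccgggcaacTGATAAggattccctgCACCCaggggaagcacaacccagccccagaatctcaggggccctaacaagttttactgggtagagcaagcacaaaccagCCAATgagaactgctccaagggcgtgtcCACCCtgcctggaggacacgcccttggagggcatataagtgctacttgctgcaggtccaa
Hbb-bs, chr7:103827929-103828178, minus strand: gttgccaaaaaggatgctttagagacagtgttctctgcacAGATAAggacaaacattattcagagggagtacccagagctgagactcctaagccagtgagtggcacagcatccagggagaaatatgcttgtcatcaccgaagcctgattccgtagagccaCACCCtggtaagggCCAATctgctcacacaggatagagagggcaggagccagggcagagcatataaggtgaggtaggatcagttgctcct
Alas2, chrX:150547167-150547416, plus strand: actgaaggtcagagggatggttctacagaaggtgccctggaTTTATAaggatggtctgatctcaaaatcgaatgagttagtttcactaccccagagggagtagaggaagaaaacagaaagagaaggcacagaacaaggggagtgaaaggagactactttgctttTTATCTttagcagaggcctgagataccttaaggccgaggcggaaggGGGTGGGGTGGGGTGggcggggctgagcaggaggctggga

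The 3 windows shown each held a GATA word and a CACCC word. Of the other adult globins, Hba-a2 held both words as well, while Hbb-bt held CACCC but no GATA word. Hba-a1 had its GATA word at bases -183 to -178 and Hbb-bs at -210 to -205, while Alas2 had it on the opposite strand at -86 to -81. CACCC stood on the opposite strand in Alas2, 3 times in a row from -40 to -26. Among 32817 promoters of the same length, 16.6% held a GATA word, 52.0% CACCC, 33.8% CCAAT and 12.4% TATAAA. These are matches of letters, with no measurement of binding. RefSeq promoters were on hand for 6 of the 9 genes.

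Alas2, the erythroid enzyme of the first step of heme synthesis, had reads in every library at a low and even level. It had 79 and 83 reads in overexpression-labelled libraries 1 and 2, against 69 and 65 reads in wildtype libraries 1 and 2. On the CPM scale that was 5.17 and 4.08 against 3.42 and 4.58, with means of 4.62 ± 0.772 and 4 ± 0.816 CPM (SD, n = 2 each). The groups overlapped. The difference on the deposited log2 scale was 0.11 (SE 0.43, limma adjusted p = 0.917), and it was 0.18 (SE 0.36, adjusted p = 0.679) for library 1 alone and 0.04 (SE 0.36, adjusted p = 0.974) for library 2 alone. The sign of such small differences turned without wildtype library 1, at -0.03 for both libraries and -0.10 for library 2. Alas2 is X-linked (chrX:150547375-150570638, plus strand) and its annotation overlaps Apex2, a DNA repair gene with 161 and 82 reads in overexpression-labelled libraries 1 and 2, against 139 and 67 in wildtype libraries 1 and 2. Strand-specific counting is not stated in the sources used here, so reads of the overlap cannot be told apart. Of the 50-base words of Alas2, 88.5% occurred in no other gene.

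Car2, a cytosolic carbonic anhydrase of red cells and of several other cell types, osteoclasts among them, was the one member at a high level, and only in overexpression-labelled library 1. It had 11805 and 164 reads in overexpression-labelled libraries 1 and 2, against 422 and 301 reads in wildtype libraries 1 and 2. Per length these were 319 and 3.33 RPKM (CPM divided by the transcript length in kilobases), against 8.65 and 8.75 RPKM. The wildtype pair lay close together, library 1 far above it and library 2 below it. As normalised reads, overexpression-labelled library 1 stood at 33.1-fold and library 2 at 0.386-fold the wildtype mean.

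The comparison of both overexpression-labelled libraries with wildtype gave a Car2 difference of 1.86 on the deposited log2 scale (SE 2.09, limma adjusted p = 0.746). It was 4.95 without overexpression-labelled library 2 (SE 0.16, adjusted p = 3.43e-11) and -1.23 without library 1 (SE 0.24, adjusted p = 0.0257). The 2 libraries of that label differed from each other by 6.18 (SE 0.21, adjusted p = 1.45e-10, library 1 minus library 2). The rise in library 1 was called in all 6 alternative settings of the filter, scaling, pseudocount or test. The fall in library 2 was lost in 5 of these 6, with an adjusted p of 0.0607 to 0.39, and was kept by limma-voom on the reads (-1.37, adjusted p = 0.00768). In the fit of library 1 the median difference of all genes was -0.15, and 0.02 with library totals that leave out Rn45s.

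Of the 9 genes, 3 passed the filter on low reads and were tested, Alas2, Car2 and Slc4a1, and 4 were at 0 throughout. In the comparison of both overexpression-labelled libraries 0 of the 3 were called, as were 0% of all 12617 genes tested (limma; 280 genes at an unadjusted p under 0.05, and 0 adjusted and 186 unadjusted by limma-voom). In library 1, Car2 rose, where 61.2% of all genes tested were called and 26.8% rose. Slc4a1 passed the threshold there too, but it had entered the test only through the overexpression-labelled libraries, so its call is no evidence of a difference. In library 2, Car2 fell, where 1.66% of all genes tested were called and 0.888% fell. Between the 2 overexpression-labelled libraries Car2 was called, as were 52.6% of all genes tested. The spread in a fit of 1 library comes from the wildtype pair and from limma's prior over all genes, so such a fit compares that library with the pair, not the conditions.

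**Figure D1:**
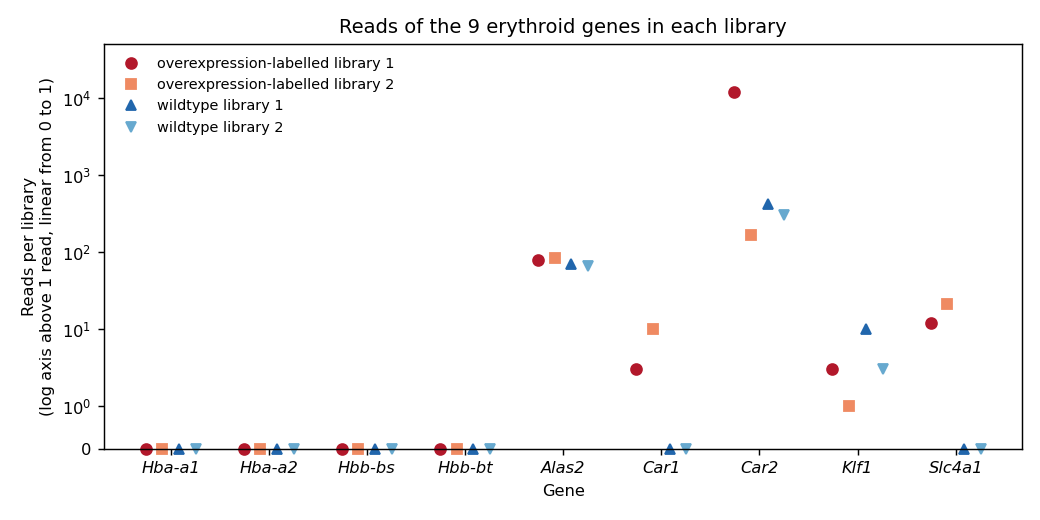
Reads of the 9 erythroid genes (horizontal axis) in each of the 4 libraries (vertical axis, logarithmic above 1 read and linear from 0 to 1). Each point is 1 library. The 4 globin genes are at 0 in every library, Alas2 lies between 65 and 83 reads, Car2 is at 11805 reads in overexpression-labelled library 1, and Car1 and Slc4a1 are at 0 in both wildtype libraries.

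Car2 lies in a cluster of carbonic anhydrase genes on chromosome 3 (Car2 at chr3:14886273-14900770, plus strand), and Car3 and Car13 in that cluster were also highest in overexpression-labelled library 1, whereas Car1 was not. Car3, whose start lies at -22.8 kb from that of Car2 and whose enzyme is known from muscle and fat, had 1132 and 2 reads in overexpression-labelled libraries 1 and 2, against 8 and 6 in wildtype libraries 1 and 2. It did not pass the filter, which asks for at least 10 reads in at least 2 libraries. Car13, a cytosolic enzyme with its start at -244.5 kb, had 31.2 and 7.71 CPM in overexpression-labelled libraries 1 and 2, against 8.79 and 8.45 CPM in wildtype libraries 1 and 2. It rose in library 1 (1.56, SE 0.26, limma adjusted p = 0.000176).

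Car1, between Car13 and Car3 and on the opposite strand, had 3 and 10 reads in overexpression-labelled libraries 1 and 2, against 0 and 0 in wildtype libraries 1 and 2. E2f5, a cell cycle transcription factor gene at the far side of Car13, had 12.6 and 23.9 CPM in overexpression-labelled libraries 1 and 2, against 22.7 and 26.1 CPM in wildtype libraries 1 and 2. The uncharacterised 1810022K09Rik, between E2f5 and Car13 with its start at -275.0 kb, had 18.8 and 11.9 CPM in overexpression-labelled libraries 1 and 2, against 12.4 and 9.93 CPM in wildtype libraries 1 and 2. Library 1 was thus the lowest at E2f5 and the highest at 1810022K09Rik, Car13, Car3 and Car2. The share of all genes at which library 1 was the highest was not counted, and a shared rise of neighbouring genes was not tested.

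**Figure D2:**
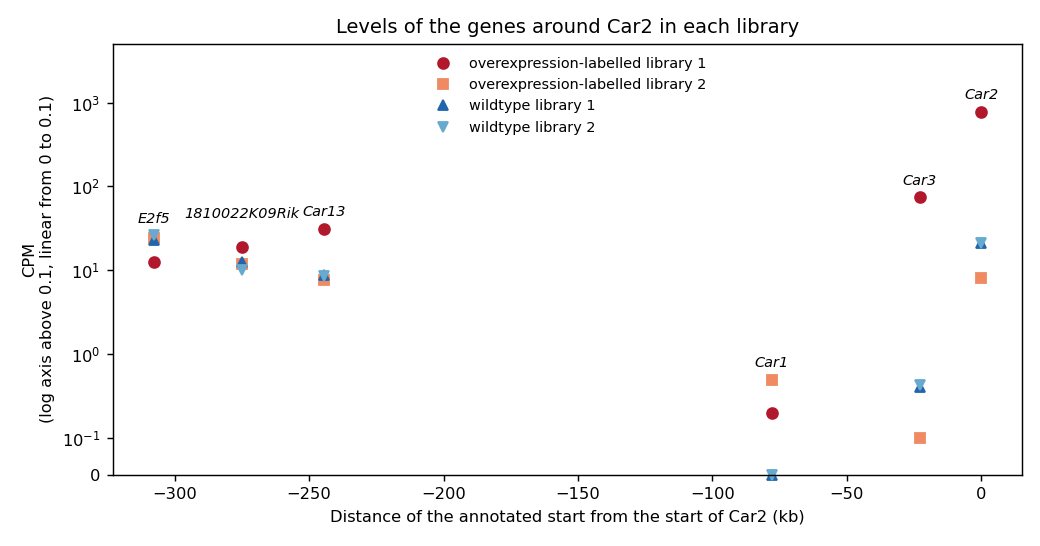
CPM (vertical axis, logarithmic above 0.1 and linear from 0 to 0.1) of the annotated genes around Car2 that had reads, by the distance of their start from that of Car2 in kb (horizontal axis). Each point is 1 library. Overexpression-labelled library 1 is the highest at 1810022K09Rik, Car13, Car3 and Car2, with 18.8, 31.2, 74.1 and 772 CPM.

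Slc4a1, Car1 and Klf1 had at most 21 reads in any library. Slc4a1 encodes band 3, the red cell anion exchanger (chr11:102348824-102366203, minus strand), and had 12 and 21 reads in overexpression-labelled libraries 1 and 2, against 0 and 0 in wildtype libraries 1 and 2. Both overexpression-labelled libraries were above both wildtype libraries, as for 19.6% of all genes tested. Over the group totals the level was 10.6-fold higher with the wildtype group set to a floor of 3 reads. That ratio takes the reads of the overexpression-labelled group as counted, without their counting error, so it is no lower limit. Slc4a1 passed the filter only through the libraries in which it had reads, so the fits below describe it and support nothing. Its difference on the deposited log2 scale was 1.46 (SE 0.40, limma adjusted p = 0.726) for both libraries, 1.33 (SE 0.47, adjusted p = 0.0249) for library 1 and 1.59 (SE 0.49, adjusted p = 0.14) for library 2. Libraries 1 and 2 differed in it by -0.26 (SE 0.53, adjusted p = 0.702).

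Car1, the second cytosolic carbonic anhydrase of red cells (chr3:14766216-14808368, minus strand), had 10 of its 13 reads in overexpression-labelled library 2. Over the group totals it was 4.18-fold higher at the same floor, which is likewise no lower limit. With 3 reads (exact Poisson 95% interval 0.619 to 8.77) and 10 reads (4.8 to 18.4) it was too low for the filter, and without a filter its difference was 0.90 (SE 0.31, limma adjusted p = 0.753). Some of its sequence recurs in the pseudogene Gm5843, and 86.6% of its 50-base words occurred in no other gene. Klf1, the transcription factor that drives adult globin expression (chr8:84901928-84905291, plus strand), was also too low for the filter. It had 3 and 1 reads in overexpression-labelled libraries 1 and 2, against 10 and 3 in wildtype libraries 1 and 2, at 0.196 and 0.0491 CPM against 0.496 and 0.211 CPM. The CPM ranges did not overlap, though overexpression-labelled library 1 and wildtype library 2 had 3 reads each. Among all genes tested, a set without Klf1, 23% were lower in both overexpression-labelled libraries. The counting intervals of Klf1 overlapped, and its unfiltered difference was -0.41 (SE 0.37, limma adjusted p = 0.753).

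The pattern of Slc4a1 and Car1, 0 reads in both wildtype libraries and at least 1 read in both overexpression-labelled libraries, was counted over the members and 6 lists of erythroid genes. Of 71 such genes with reads, 7 showed it and 0 showed the reverse. Among all 17905 genes with reads, 1.18% showed it and 1.51% showed the reverse. At a minimum of 3 reads the members and lists gave 4 genes, Car1, Slc4a1, Tal1 and Rhag, beside 0.307% of all genes. This pattern was looked for after the values had been seen.

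Tal1, a transcription factor of blood stem and erythroid cells, had 161 and 5 reads in overexpression-labelled libraries 1 and 2, and Rhag, a red cell membrane protein of the Rh complex, had 5 and 10. Aqp1, the red cell water channel, had 9 and 1 reads, and Pklr, the red cell and liver pyruvate kinase, 1 and 2. All 4 were at 0 in both wildtype libraries. Gata1, the central erythroid transcription factor, was listed at 0 in all 4 libraries.

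Markers of neutrophils, abundant cells of the marrow, also differed between the libraries. Their 12 genes summed to 145 and 1637 CPM in overexpression-labelled libraries 1 and 2, against 7.15 and 110 CPM in wildtype libraries 1 and 2. Of the 10 tested, 4 rose in library 1, where 26.8% of all genes rose, and 10 rose in library 2, where 0.769% did. The library 2 calls of these markers were lost with no filter on low reads and with a mean of at least 10 reads. In overexpression-labelled library 1 some of the markers were no higher than in wildtype library 2, among them Mpo with 3.73 against 6.69 CPM. The genes of that list at 0 were 1 (Prtn3) and 0 in overexpression-labelled libraries 1 and 2, against 6 and 2 in wildtype libraries 1 and 2. Monocyte and macrophage markers, 9 genes, summed to 30.5 and 256 CPM in overexpression-labelled libraries 1 and 2, against 71.2 and 83.3 CPM in wildtype libraries 1 and 2. Most of the high sum of library 2 was Lyz2, which neutrophils share, with 24.9 and 199 CPM in overexpression-labelled libraries 1 and 2, against 17 and 33.6 CPM in wildtype libraries 1 and 2. Megakaryocyte and platelet markers, 8 genes, summed to between 1.9 and 4.13 CPM in all 4 libraries, and 5 of 6 mast cell and basophil markers were listed at 0 throughout. The part of other marrow cells in the reads of Slc4a1, Car1 and Rhag was not tested.

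**Figure D3:**
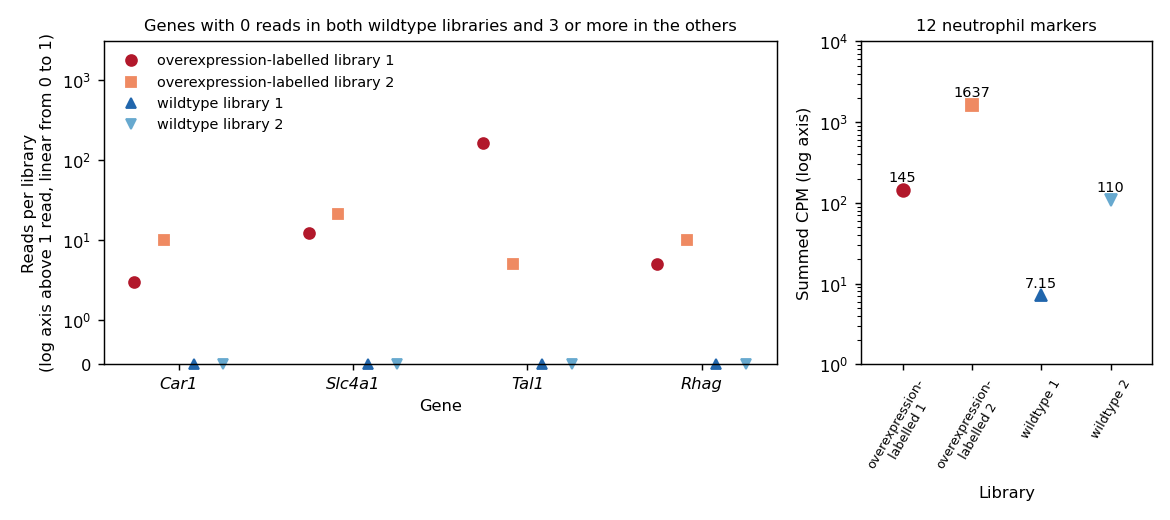
Left, reads per library (vertical axis, logarithmic above 1 read and linear from 0 to 1) of the 4 erythroid genes with 0 reads in both wildtype libraries and at least 3 reads in both overexpression-labelled libraries. Right, the summed CPM of 12 neutrophil markers in each library on a logarithmic axis, highest in overexpression-labelled library 2 at 1637 CPM and lowest in wildtype library 1 at 7.15 CPM.

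Summed over the 9 genes, the level was 779 and 13.7 CPM in overexpression-labelled libraries 1 and 2, against 24.9 and 26 CPM in wildtype libraries 1 and 2. The exact Clopper-Pearson 95% intervals were 765 to 793 and 12.1 to 15.4 CPM, against 22.7 to 27.1 and 23.4 to 28.8 CPM, and cover counting error only. The sum followed Car2, which took 99.2% and 58.8% of the reads of the 9 genes in overexpression-labelled libraries 1 and 2, against 84.2% and 81.6% in wildtype libraries 1 and 2. The globins, the most abundant mRNAs of red cell precursors, added no reads to it.

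Without Car2 the other 8 genes summed to 6.35 (5.15 to 7.74) and 5.65 (4.66 to 6.78) CPM in overexpression-labelled libraries 1 and 2, against 3.92 (3.1 to 4.89) and 4.79 (3.72 to 6.07) CPM in wildtype libraries 1 and 2. Both overexpression-labelled libraries were above both wildtype libraries, while the intervals of overexpression-labelled library 2 and wildtype library 2 overlapped. Most of these reads were those of Alas2. A two-sided exact permutation test gave p = 0.333, the smallest that 2 libraries against 2 allow.

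Genes of the wider erythroid lists were called in both directions in library 1. The lists also hold genes at a high level in the wildtype B cells, such as Fth1 with 1077 and 1124 CPM. Of the 80 genes on the 6 lists, 78 were in the tables and 48 were tested. In overexpression-labelled library 1, 16 of the 48 rose and 16 fell, each 33.3%, where 26.8% of all genes tested rose and 34.4% fell. That even split depended on the filter: with no filter on low reads 12 of 66 list genes rose and 3 fell, and 7 of the 32 calls were kept, those of Tfrc, Steap3, Fth1, Ldb1, Lmo2, Prdx2 and Bnip3l. The median difference of the 48 was 0.21, beside -0.15 for all genes. In overexpression-labelled library 2 none of the 48 rose and 2 fell, or 4.17%, where 0.769% of all genes rose and 0.888% fell, with medians of 0.20 and 0.01. By limma-voom on the reads 4 of the 48 rose in library 2 and 3 fell, where 371 of all 12617 genes rose and 243 fell. Neither direction was called for any of the 48 in the comparison of both libraries.

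Among the 8 heme synthesis enzymes, Alad, Urod and Cpox rose in library 1 and none fell, where 26.8% of all genes tested rose and 34.4% fell. With no filter on low reads all 3 calls were lost. That of Urod was also lost with a mean of at least 10 reads. Cpox, which makes the porphyrin ring's precursor protoporphyrinogen, had 71.1 and 7.42 CPM in overexpression-labelled libraries 1 and 2, against 8.64 and 6.13 CPM in wildtype libraries 1 and 2 (library 1 difference 2.91, SE 0.26, limma adjusted p = 7.32e-07). Alad, the enzyme after ALAS, had 36 and 8.15 CPM against 5.66 and 8.17 CPM (2.04, SE 0.28, adjusted p = 3.9e-05), and Urod rose by 1.20 (SE 0.35, adjusted p = 0.00995). Library 1 was the high one in each. Alas1, the first enzyme in cells other than erythroid ones, had 13.5 and 22.8 CPM against 15.5 and 19.6 CPM, and Fech, which inserts the iron, 20.3 and 19.2 CPM against 23.4 and 19.4 CPM. Neither was called in any comparison with wildtype.

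Genes of iron and heme handling split. Tfrc, the transferrin receptor that brings iron into the cell, had 358 and 61.1 CPM in overexpression-labelled libraries 1 and 2, against 91.4 and 92.6 CPM in wildtype libraries 1 and 2 (library 1 difference 1.80, SE 0.14, limma adjusted p = 1.19e-07). Steap3, an iron reductase of the endosome, rose by 3.25, Slc11a2, an iron transporter, by 1.65, Glrx5, of iron-sulphur cluster assembly, by 1.36, and Blvra, a biliverdin reductase, by 1.29. The ferritin chains, which store iron, fell in library 1, Fth1 by 1.83 (SE 0.11, adjusted p = 1.82e-08) and Ftl1 by 0.55 (SE 0.12, adjusted p = 0.00128). Fth1 had 342 and 967 CPM in overexpression-labelled libraries 1 and 2, against 1077 and 1124 CPM in wildtype libraries 1 and 2. Abcb10, a mitochondrial transporter, fell by 2.37, and Blvrb fell by 0.69, a call lost with either other scaling of the libraries. With no filter on low reads the calls of Tfrc, Steap3 and Fth1 were kept, and the other calls named here were lost. Of all genes tested, 26.8% rose and 34.4% fell in library 1. None of the 13 genes tested was called in library 2.

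Of 9 erythroid transcription factors tested, 6 fell in library 1 and 2 rose, where 34.4% of all genes tested fell and 26.8% rose. With no filter 5 of the 6 falls were lost, that of Lmo2 being kept. The filter asks for at least 10 reads in at least 2 libraries. A gene high only in library 1 could thus fail it, while a gene low only there could pass. Tal1 of this list, with 161 and 5 reads in overexpression-labelled libraries 1 and 2 and 0 in both wildtype libraries, was not tested. Klf3, a relative of KLF1 that binds the same words, had 18.6 and 67.9 CPM in overexpression-labelled libraries 1 and 2, against 197 and 153 CPM in wildtype libraries 1 and 2. Klf3 was among the 23% of all genes tested that were lower in both overexpression-labelled libraries. Both overexpression-labelled libraries were below both wildtype libraries, and Klf3 fell in each alone, by 3.25 (SE 0.18, limma adjusted p = 5.22e-09) in library 1 and by 1.32 (SE 0.17, adjusted p = 0.00303) in library 2. Zfpm1, the cofactor of GATA1, fell by 2.76 in library 1 (SE 0.30, adjusted p = 3.73e-06) and by 1.19 in library 2 (SE 0.26, adjusted p = 0.0455). The library 2 call of Zfpm1 was lost in 5 of 6 alternative settings and that of Klf3 in 2 of 6. Lmo2, Nfe2, Cbfa2t3 and Zbtb7a fell in library 1 by 0.94 to 1.82, and Bcl11a, a repressor of fetal globin genes also used by B cells, rose there by 0.68 and Ldb1, an adaptor of the GATA complex, by 0.97.

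With the filter on low reads, red cell membrane genes and late erythroid genes split evenly in library 1. The shares of all genes that rose and fell there, given above, apply to these lists too. With no filter every membrane call was lost, and of the late erythroid calls only the rises of Prdx2 and Bnip3l were kept. Of 10 membrane genes tested, Gypc, Tmod1 and Xk rose and Ank1, Epb4.2 and Sptb fell. Epb4.2, the protein 4.2 that anchors band 3, had 1 and 55 reads in overexpression-labelled libraries 1 and 2, against 68 and 52 in wildtype libraries 1 and 2 (library 1 difference -2.27, SE 0.40, limma adjusted p = 0.00031), and Ank1, the ankyrin on which band 3 sits, had 1 and 71 reads against 50 and 44 (-2.03, SE 0.42, adjusted p = 0.000896). In overexpression-labelled library 1 these anchors of band 3 were thus nearly without reads, while Slc4a1 itself had 12. Epb4.1, protein 4.1, had the highest CPM of the list, 138 and 125 against 92.8 and 123, and was not called.

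Of 8 late erythroid genes tested, Cat, Bnip3l and Prdx2 rose in library 1 and Epor, Fam132b and Tmcc2 fell. Prdx2, a peroxide-removing enzyme, had 80.6 and 14.5 CPM in overexpression-labelled libraries 1 and 2, against 8.34 and 9.37 CPM in wildtype libraries 1 and 2 (library 1 difference 2.85, SE 0.23, limma adjusted p = 2.43e-07). Catalase, Cat, had 287 and 97.5 CPM against 59.9 and 87.3 CPM (1.82, SE 0.18, adjusted p = 2.12e-06). Epor, the receptor for erythropoietin, had 0 and 15 reads in overexpression-labelled libraries 1 and 2, against 33 and 5 in wildtype libraries 1 and 2, and its fall in library 1 rested on wildtype libraries that lay far apart. Bpgm, which makes the red cell phosphate that lowers oxygen binding, had 8.64 and 5.89 CPM against 7.25 and 5.78 CPM and was not called.

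**Figure D4:**
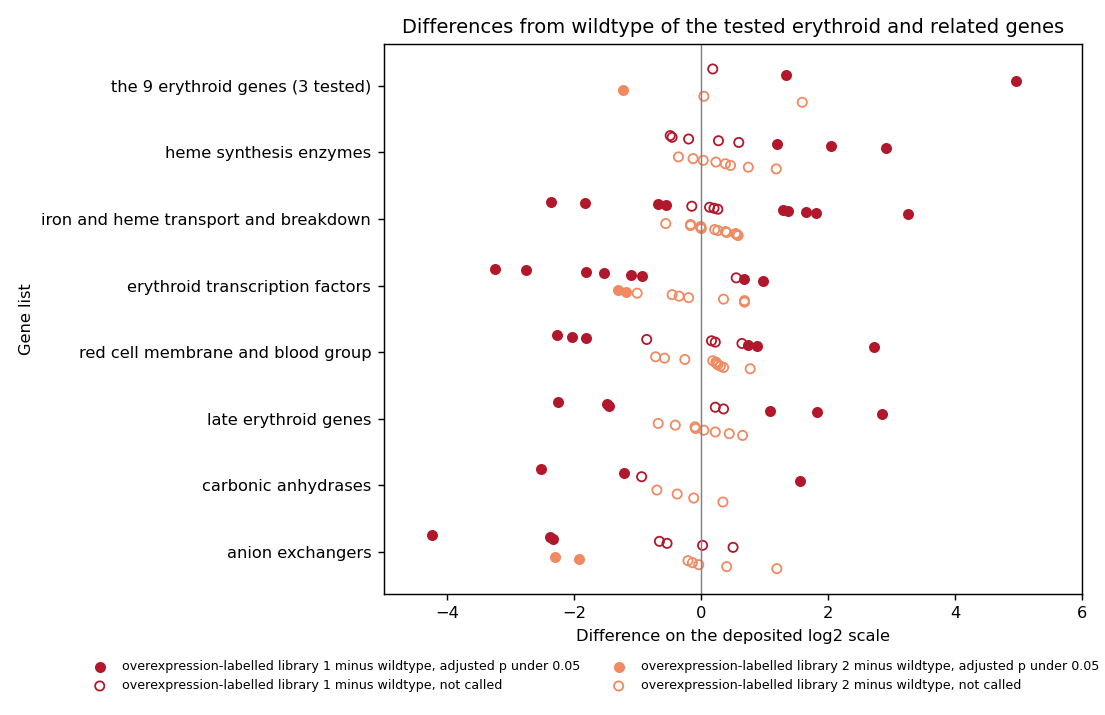
Difference from the wildtype pair on the deposited log2 scale (horizontal axis) of every tested gene of the 9 erythroid genes and 7 related lists (vertical axis), for each overexpression-labelled library alone. Each circle is 1 gene, filled where limma's adjusted p was under 0.05. In library 1 filled circles lie on both sides of 0 in the iron, transcription factor, membrane and late lists, and Car2 lies farthest to the right at 4.95.

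Families of the enzyme and transporter members were set beside them. Of 14 other carbonic anhydrase genes 4 were tested. Besides the rise of Car13, Car15, a membrane-bound enzyme in mice, fell in library 1 by 2.52 (SE 0.44, limma adjusted p = 0.000261) and Car5b, a mitochondrial one, by 1.21 (SE 0.43, adjusted p = 0.0259). Car12, a membrane enzyme outside the cluster, had 252 and 5 reads in overexpression-labelled libraries 1 and 2, against 2 and 0 in wildtype libraries 1 and 2, and did not pass the filter. Library 1 was the high one, as at Car2 and Car3.

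None of the 9 relatives of Slc4a1 in its family had 0 reads in both wildtype libraries and reads in both overexpression-labelled libraries. Slc4a3, an anion exchanger of heart and brain, had 0 and 50 reads in overexpression-labelled libraries 1 and 2, against 303 and 163 in wildtype libraries 1 and 2, and fell in library 1 (-4.24, SE 0.36, limma adjusted p = 4.32e-07) and in library 2 (-1.92, SE 0.31, adjusted p = 0.0104). Slc4a5, a bicarbonate cotransporter, had 11 and 15 reads against 203 and 97 and fell in both as well (-2.38, SE 0.37, adjusted p = 0.000102 in library 1, and -2.30, SE 0.36, adjusted p = 0.00997 in library 2). For both genes the overexpression-labelled libraries lay below both wildtype libraries, as for 23% of all genes tested. In library 1 34.4% of all genes tested fell, and in library 2 0.888% did. The library 2 calls of both genes were lost with no filter on low reads and with a mean of at least 10 reads, where 0 genes were called. Slc4a11 fell in library 1 as well (-2.33, SE 0.44, adjusted p = 0.000445). The widely expressed Slc4a2 had 14.3 and 8.35 CPM against 8.84 and 8.59 CPM, and Slc4a7 had 134 and 106 CPM against 116 and 121 CPM, and neither was called.

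The 3 tested members, the ones compared here, differed in their profile over the 4 libraries. Likeness was measured as the root-mean-square difference of centred log2 profiles (normalised reads plus 0.5), with 0 for the same profile. It was 2.37 between Alas2 and Car2 and 3.26 between Car2 and Slc4a1. The genes nearest to Car2 were Adgrl2 (0.21), Myb (0.29), Zak (0.30), Arhgef5 and Gpm6b (0.32 each), Hist1h1a (0.35) and Epb4.1l4b and Cd93 (0.36 each). In all, 22 of the genes tested lay within 0.5 of Car2. Myb had 6743 and 158 reads in overexpression-labelled libraries 1 and 2, against 278 and 187 in wildtype libraries 1 and 2.

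Nearest to Slc4a1 were Prss57 (0.14), Mir99ahg (0.24), Slc9a3r2 (0.25) and 4922502D21Rik (0.34), the 4 genes within 0.5 of it. Prss57 had 10 and 17 reads in overexpression-labelled libraries 1 and 2, against 0 and 0 in wildtype libraries 1 and 2. Alas2, being nearly level, had 5553 genes within 0.5. With 4 libraries many genes share a profile, and these are descriptions of the 4 libraries. The profile of the summed globins could not be used, since it was at 0 throughout.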

How the data were processed

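The authors deposited 1 table of log2 values per library for 4 RNA-seq libraries, grouped here by the genotype label; the submitters' processing notes name STAR, HTSeq, DESeq2 and the build mm10, without versions. The deposited values have the form of a variance stabilizing transformation with a floor of 4.949 for genes without reads. Undoing it (y and K being the value and the floor raised from log2, the square of y - K over y) and multiplying by each library's size factor gave whole reads for 100% of values within 0.01. Reads, CPM and RPKM (over merged GENCODE exons) come from these.

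Groups were compared by limma-trend on the deposited log2 values, two-sided, with Benjamini-Hochberg adjustment over 12617 genes and a threshold of 0.05, in limma 3.58.1 under R 4.3.3, and tested on simulated data. A gene was kept if 2 or more libraries reached the equivalent of 10 reads in a library of median size and the 4 together held 15 or more. Differences on this scale understate changes of genes with few reads. The labels give no batch. Alternatives changed the filter, scaling, pseudocount or test (limma-voom on the reads), or left out a library.

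The members and lists were chosen with earlier results of these data known. Named genes are all members, the 4 of each list highest in mean CPM, the called genes of lists with 4 or fewer, and the genes with profiles nearest to the globins; as these stood at 0, those nearest to Car2, Slc4a1 and Alas2 were taken after seeing this. Other list genes named were chosen after their values were seen. Epb4.1, Epb4.2 and Fam132b are older symbols of Epb41, Epb42 and Erfe; Ahsp and Flvcr1 were not matched. Values of some list genes are not reported here.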

Additional observations from a re-analysis of the deposited data

How the results depend on the processing

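No paired analysis was possible because the labels give no replicate numbers and no pairing. In the comparison of both overexpression-labelled libraries, leaving out 1 library moved the number of genes called from 0 to between 0 and 7721 (209 without overexpression-labelled library 1, 7721 without library 2, 1 without wildtype library 2), and that of the 48 list genes from 0 to between 0 and 32 (2 and 32). The Car2 difference of 1.86 ran from -1.23 to 4.95, the ends being those without overexpression-labelled library 1 and 2. The Alas2 difference ran from -0.03 to 0.25 for both libraries and was -0.10 for library 2 without wildtype library 1. In library 1, with no filter, 2642 genes were called in place of 7721 and 15 list genes in place of 32, of which 7 were among the 32. In library 2, in place of 209 genes and 2 list genes, 0 and 0 were called with no filter, 0 and 0 with a mean of at least 10 reads, 70 and 1 with recomputed size factors, 58 and 1 without Rn45s, 56 and 1 on log2 of normalised reads plus 0.5, and 614 and 7 by limma-voom. The fall of Car2 in library 2 was lost under the first 4 of these at -1.23 (adjusted p = 0.129, 0.39, 0.0607 and 0.0678) and under the fifth at -1.37 (adjusted p = 0.0639). In library 2 the list call of Zfpm1 was lost in all of these 5 and that of Klf3 in the first 2. The ratio of the 9 summed genes in library 1 to the wildtype mean was 30.6, 31.8 without Rn45s and 27.7 with the authors' size factors. The cause of these shifts was not tested. The other 54 values of these main results and 46 of single genes stayed the same: in direction and, where there was a test, in side of the threshold, or within 1.5 times for counts and 1 SD for ratios. Fits of 1 library against 1 give values without a test, so counts without a wildtype library were not run for single libraries. Genes with under 10 reads are limited by counting error.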
